A study of Mus musculus with 7 samples.

Results

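Excitatory neurons of the motor cortex (MC) were compared with those of the ventromedial prefrontal cortex (PFC) of the mouse inside 2 gates, so that upper-layer cells were set against upper-layer cells and layer 6 cells against layer 6 cells. The cells were chosen by their raw counts of unique molecular identifiers (UMIs, each standing for a captured RNA molecule). An excitatory cell had at least 2 UMIs of Slc17a7, the vesicular glutamate transporter of cortical excitatory neurons, and at most 1 UMI of Gad1 and Gad2 together, the enzymes that make GABA. Upper-layer cells had at least 2 of the 4 genes Cux2, Otof, Calb1 and Lamp5 detected, and layer 6 cells at least 2 of the 4 genes Foxp2, Rprm, Hs3st4 and Syt6. Of 32985 deposited cells 31921 were left after doublet calls, 10013 of them were excitatory, and 5259 entered a gate, 3161 as upper-layer and 2098 as layer 6 cells. A further 211 cells met both gates and were dropped, and 4543 met neither.

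Single-cell libraries had been made with 10x Genomics chemistry, which reads the 3' end of transcripts, from mice of strain B6129SF1/J at postnatal day 30 kept in 12 h of light and 12 h of dark. Control mice (CTRL) were Opn4-Cre/+; Brn3b-+/+, and DTA mice were Opn4-Cre/+; Brn3b-zDTA/+, which is meant to ablate the Brn3b-expressing ganglion cells of the retina that make melanopsin. Both genotypes therefore carried Opn4-Cre. Of the 7 libraries 2 are PFC CTRL, 3 PFC DTA, 1 MC CTRL and 1 MC DTA, so the area comparison rests on 2 MC libraries, with genotype as a term. The area of a library comes from its title and source name. The protocol text attached to the MC samples describes excision of the PFC alone, and the labels do not say whether both areas came from the same mice, so p-values measure the spread between these libraries.

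The cerebral cortex is built of layers whose excitatory neurons send axons to different targets. Neurons of the upper layers project within the cortex, while many neurons of layer 6 project to the thalamus. Areas share these layers but differ in the thickness of each, in their inputs and in the genes their neurons express, so a comparison of whole excitatory populations mixes differences in layer makeup with differences within a layer.

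Summed counts per library ranged from 674562 to 8485918 in the upper-layer gate and from 543584 to 4817969 in the layer 6 gate, over 118 to 769 and 115 to 496 cells. Median UMIs per upper-layer cell were 12102, 5220, 5566, 13657 and 11212.5 in PFC CTRL replicates 1 and 2 and PFC DTA replicates 1 to 3, the order used below wherever 5 PFC values are given. They were 6823 and 17448.5 in the MC CTRL and MC DTA libraries, the order of all pairs of MC values, so both areas held shallow and deep libraries. Pairs of libraries shared 7 to 92 cell barcodes, at most 1.498% of the smaller library.

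The genes of the gates selected the cells, and their levels are a description without a test. In the upper-layer gate Lamp5 was detected in 84.2% to 92.9% of PFC cells and 93.5% to 97.99% of MC cells, and Calb1 in 87.3% to 93.2% and 90.5% to 92.6%. Cux2, a transcription factor of upper-layer neurons, was detected in 45.8% to 68.6% and 61.1% to 74.7%. Otof was detected in 6.78% to 23.5% of PFC cells and 2.99% to 13.5% of MC cells, so the gate rested mostly on Calb1 and Lamp5. In the layer 6 gate Rprm was detected in 94.7% to 98.1% of PFC cells and 87.9% to 92.7% of MC cells, and Foxp2 in 40.7% to 57.2% and 56.1% to 63.9%.

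Marker genes that the gates did not use followed the layer names. The summed level of 9 other upper-layer genes was 449.7 to 554 CPM in PFC and 778 to 819.7 CPM in MC upper-layer cells (CPM, the gene's count when the library's counts in the gate are scaled to 1000000), against 90.1 to 175 and 152 to 198 CPM in layer 6 cells. For 8 other corticothalamic genes it was 1203 to 1665 and 1113 to 1503 CPM in layer 6 cells, against 261 to 389 and 141 to 199 CPM in upper-layer cells. Just inside the upper-layer threshold, the 1665 cells with exactly 2 gate genes had 394 to 549 CPM of the other upper-layer genes in PFC libraries. In MC CTRL and MC DTA they had 748 and 615 CPM. Just outside it, the 2144 cells with 1 gate gene had 209 to 326 CPM in the PFC and 403 and 331 CPM in the MC. The MC CTRL cells just outside thus had more than the cells just inside in PFC DTA replicates 2 and 3 (394 and 397 CPM). Whether the gate cuts at the same point in both areas was not tested. For layer 6, the 965 cells with 2 gate genes had 812 to 1464 CPM of the other corticothalamic genes and the 1628 cells with 1 gate gene had 425 to 663 CPM.

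Genes of other cells were present at unequal levels in the 2 areas. In upper-layer cells the corticothalamic sum above was higher in every PFC library than in either MC library, as was that of 5 near-projecting layer 5 genes, at 9.18 to 101 CPM in the PFC and 2.54 to 6.17 CPM in the MC. So was that of 6 genes of the claustrum and of layer 6 neurons that project within the cortex (138 to 322 and 90.8 to 133 CPM). The sum of 7 middle-layer genes was higher in both MC libraries, at 100 to 108 CPM against 47.2 to 74.4 CPM in the PFC. Rorb, described below, made up most of the MC sums. Of the 5 middle-layer genes tested, 2 had a log2 fold change above 0 and 3 below 0, with a median of -0.40, and only Rorb was called. The 7 genes of oligodendrocytes, the myelin-forming glia, summed to 97.7 to 221 CPM in PFC and 443 to 563 CPM in MC upper-layer cells, and 4 of them were called higher in the MC, beside 3.82% of all tested genes. The same sums in layer 6 cells were 143 to 985 and 114 to 548 CPM, with 0 called. Mitochondrially encoded genes made up 2.92% to 3.77% of PFC and 4.203% to 4.51% of MC counts in upper-layer cells, and 2.51% to 3.59% and 3.43% to 4.59% in layer 6 cells. The part of these other cells and of cell quality in the area differences below was not tested. Cells gated as microglia (no Slc17a7 and at least 4 of 9 microglial genes) are quoted beside single genes as a rough guide to free RNA. Their median UMIs per cell were 1008 to 3173 in PFC and 1418 to 2972 in MC libraries, below those of the gated neurons. The same amount of free RNA therefore gives a higher CPM in them, and RNA that microglia make themselves is counted too.

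Of the excitatory cells, 43.6% ± 7.91 (SD, n = 2) of the MC and 27.7% ± 6.63 (SD, n = 5) of the PFC libraries fell in the upper-layer gate. The shares were 25.95%, 24.1%, 20.7%, 38.02% and 29.9% in the PFC libraries and 38.03% and 49.2% in the MC libraries. Both MC libraries ranked above the PFC, but MC CTRL and the highest PFC library, PFC DTA replicate 2, differed by less than the counting error of either. The exact two-sided permutation p was 0.0952, the smallest that 21 ways of choosing 2 of 7 libraries allow. For a thinned version, the 425 to 4868 cells of any type per library with fewer than 2000 UMIs were left out. The rest were thinned to 2000 UMIs each. The excitatory gate was applied again to the thinned counts, so the shares are of fewer excitatory cells (1188 instead of 2022 in MC CTRL). These shares were 17.6% ± 2.75 (SD, n = 2) and 9.98% ± 1.52 (SD, n = 5). Both MC libraries lay above all 5 PFC libraries, with an exact permutation p of 0.0952. With at least 3 gate genes required, the MC held 27.6% ± 12.2 and the PFC 13.3% ± 5.84 (SD), MC CTRL (18.9%) lay below PFC DTA replicate 2 (20.6%), and the exact permutation p was 0.1905. A gate of Cux2 and Otof together held 2.78% ± 2.88 and 2.69% ± 1.898 (SD), which differ by 0.0855 percentage points (exact permutation p = 1.0; setting added after the data were seen).

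The layer 6 gate held 21.6% ± 4.14 (SD, n = 2) of MC and 23.3% ± 9.15 (SD, n = 5) of PFC excitatory cells, with an exact permutation p of 0.952. The shares were 38.7%, 14.4%, 20.2%, 22.7% and 20.3% in the PFC and 24.5% and 18.7% in the MC libraries. PFC CTRL replicate 1 stood above all others, and without it the difference of MC minus PFC changed sign, from -1.68 to 2.19 percentage points. Shares among dissociated cells need not equal those in the tissue.

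**Figure D1:**
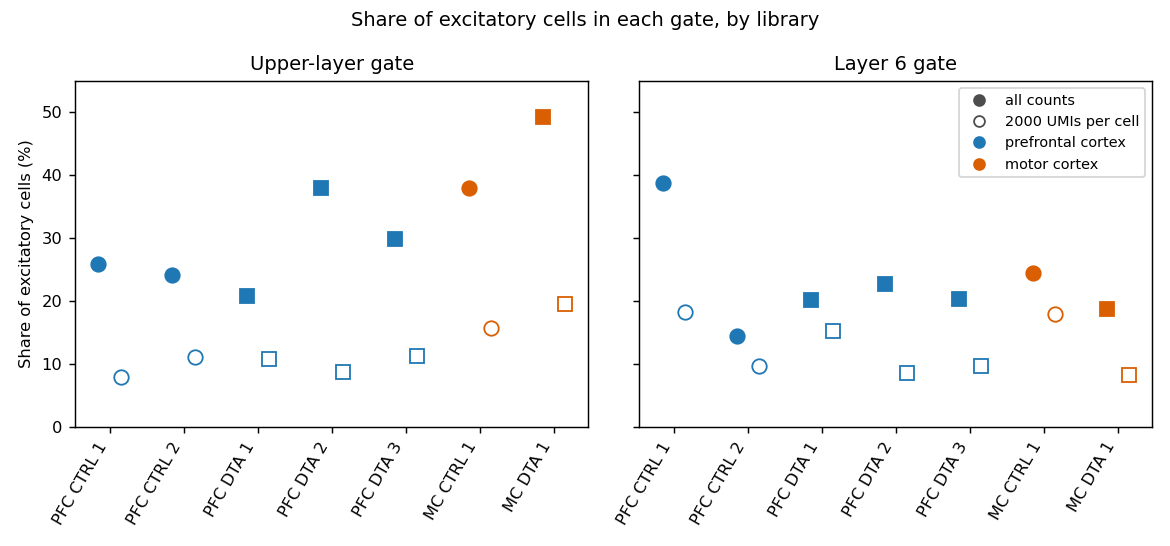
Share of excitatory cells (%, y axis) in the upper-layer gate and in the layer 6 gate for each of 7 libraries, from all counts (filled) and after leaving out cells with fewer than 2000 UMIs and thinning the rest to 2000 (open), with circles for CTRL and squares for DTA. After thinning, the upper-layer shares of the 2 MC libraries lie above all 5 PFC libraries, while the layer 6 shares of the areas overlap.

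In upper-layer cells 481 of 12578 tested genes were higher in the MC (3.82%) and 373 were lower (2.97%) at an adjusted p below 0.05 (edgeR quasi-likelihood test). In layer 6 cells 148 of 11737 were higher (1.26%) and 144 were lower (1.23%). These counts leaned on both MC libraries: without MC CTRL 110 upper-layer and 48 layer 6 genes were called, and without MC DTA 167 and 17. Without PFC CTRL replicate 2 there were 514 upper-layer calls, and without PFC DTA replicate 2 there were 490 layer 6 calls. Values of the 2 gates come from the same 7 libraries and are set side by side below, not as separate evidence. Where a call ended when 1 library was left out, the log2 fold change without that library follows in parentheses, as a range where several libraries did so.

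Among called genes at a mean of at least 20 CPM, Grp, which encodes gastrin-releasing peptide, and Cd24a led the differences in upper-layer cells. Grp was at 135, 126, 60.8, 124 and 142 CPM in the PFC libraries and 8.46 and 7.77 CPM in MC CTRL and MC DTA. Every PFC library lay far above both MC libraries, and the log2 fold change was -3.91 ± 0.30 (SE; edgeR adjusted p = 6.37e-05). In microglia-gated cells Grp stood at 5.51 to 12.2 CPM in the PFC and 0 to 1.74 CPM in the MC.

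Nnat, which encodes the small membrane protein neuronatin (mm10 chr2:157560078-157562522), was at 239, 169, 84.5, 189 and 86.7 CPM in PFC and at 14.5 and 12.1 CPM in MC upper-layer cells. The groups did not overlap, with a log2 fold change of -3.59 ± 0.44 (SE; edgeR adjusted p = 0.00531). Cd24a, a surface glycoprotein gene, was at 49.2, 45.1, 35.6, 28.9 and 25.2 CPM in the PFC and at 1.23 and 3.96 CPM in the MC, a log2 fold change of -3.73 ± 0.39 (SE; edgeR adjusted p = 0.00042) that ran from -2.84 without MC CTRL to -5.21 without MC DTA. Microglia-gated cells held 35.99 to 90.3 CPM of Nnat in the PFC and 8.68 to 8.92 CPM in the MC, so the ranges of Nnat did not overlap there either.

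The other genes that led the lower group have varied roles. Gadd45g, induced by stress and by neuronal activity, was at 467 to 741 CPM in the PFC and at 75.4 and 135 CPM in the MC, beside 157 to 296 and 175 to 268 CPM in microglia-gated cells (log2 fold change -2.55 ± 0.24, SE). Ngb encodes neuroglobin, an oxygen-binding protein, and was at 28.5 to 37.1 CPM in the PFC and 9.52 and 3.96 CPM in the MC (-2.31 ± 0.24, SE). Pcdh17, a protocadherin of cell adhesion, was at 170.5 to 243 CPM against 52.9 and 44.6 CPM (-2.13 ± 0.18, SE). Grin3a, a subunit of NMDA-type glutamate receptors, was at 31.1 to 56.7 CPM against 5.11 and 13.96 CPM (-2.14 ± 0.36, SE). All 4 genes were called, with no overlap between the areas, and both were conditions for naming them. The calls of Grp, Cd24a, Gadd45g, Ngb, Pcdh17 and Grin3a held without any 1 library. Nnat (-3.81 to -3.37) lost its call without MC CTRL or MC DTA.

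Among genes higher in MC upper-layer cells, Frzb, which encodes a secreted inhibitor of Wnt signalling (mm10 chr2:80411970-80447625), was at 9.59, 15.9, 8.89, 21.9 and 14.9 CPM in the PFC and at 92.5 and 90.7 CPM in the MC. The gap between the highest PFC and the lowest MC library was wide, and the log2 fold change was 2.57 ± 0.20 (SE; edgeR adjusted p = 2.65e-05). A2ml1, a relative of the protease inhibitor alpha-2-macroglobulin, was at 10.4 to 27.2 CPM against 127 and 84.2 CPM (2.57 ± 0.30, SE). Cdh6, a cell adhesion cadherin, was at 10.8 to 21.01 CPM against 101 and 62.01 CPM (2.29 ± 0.19, SE).

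Ppp1r1b, which encodes the dopamine-responsive phosphatase inhibitor DARPP-32, was at 38.8, 32.7, 45.96, 34.5 and 36.2 CPM in PFC and at 132 and 169 CPM in MC upper-layer cells. Its log2 fold change was 2.06 ± 0.14 (SE; edgeR adjusted p = 4.22e-06). Lynx1, a modulator of nicotinic acetylcholine receptors, was at 23.8 to 70.2 CPM against 148 and 136 CPM, and Tcap, known from the sarcomere of muscle, at 7.35 to 18.9 CPM against 43.5 and 53.6 CPM. Tmem215, a transmembrane protein gene, was at 8.87 to 42.99 CPM against 69.3 and 73.3 CPM. Log2 fold changes of these 3 genes were 1.97, 1.95 and 2.24, each called.

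The calls of Frzb, A2ml1, Cdh6, Ppp1r1b and Tcap held without any 1 library. Lynx1 (1.35 to 1.99) lost its call without PFC DTA replicate 1 or MC CTRL. Tmem215 (1.66 to 2.95) lost its call without PFC CTRL replicate 1, PFC CTRL replicate 2, MC CTRL or MC DTA.

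**Figure D2:**
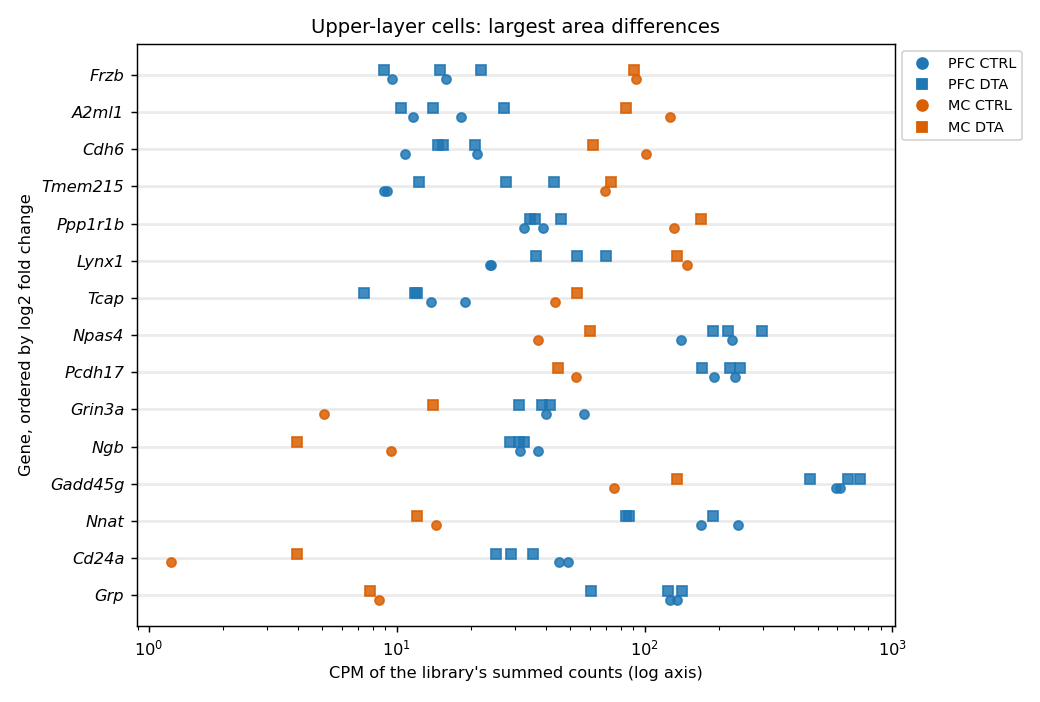
CPM (log axis) in the upper-layer cells of each library for 15 of the 16 genes with the largest called area differences at a mean of at least 20 CPM; colours mark the areas and symbols the genotypes. Both MC libraries lie outside the range of the 5 PFC libraries for each gene, which the rule for naming genes required.

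The same rule of no overlap between the areas chose the genes of largest fold in layer 6 cells. In layer 6 cells Nnat was lower in the MC as well. It was at 351, 330.2, 342, 165 and 159.6 CPM in the PFC and at 26.4 and 4.91 CPM in MC CTRL and MC DTA. The areas were far apart and the 2 MC libraries also differed from each other, and the log2 fold change of -4.20 ± 0.58 (SE) had an edgeR adjusted p of 0.0266. With 3 gate genes required it was -2.35, against -3.03 for Kit, described next. Nnat (-4.34 to -3.67) lost its call without PFC CTRL replicate 1, PFC CTRL replicate 2, PFC DTA replicate 2, PFC DTA replicate 3 or MC DTA.

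The other named genes lower in MC layer 6 cells include receptors and ligands. Kit, a receptor tyrosine kinase, was at 37.7, 44.9, 33.1, 26.2 and 54.5 CPM in the PFC and at 6.24 and 4.91 CPM in the MC. The ranges were apart, with a log2 fold change of -2.81 ± 0.34 (SE; edgeR adjusted p = 0.000768). Rxfp1, a receptor of the hormone relaxin, was at 26.4 to 70.1 CPM against 11.3 and 6.701 CPM (-2.45 ± 0.47, SE), and Nrp2, a receptor subunit for semaphorins, at 18.7 to 42.3 CPM against 8.02 and 5.36 CPM (-1.91 ± 0.30, SE). Microglia-gated cells held 19.3 to 36.5 CPM of Nrp2 in the PFC and 23.8 to 34.7 CPM in the MC, no less than the MC neurons.

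Cxcl12, a chemokine, was at 97.5, 113, 84.6, 88.4 and 101 CPM in PFC and at 16.9 and 37.1 CPM in MC layer 6 cells (-1.90 ± 0.24, SE; edgeR adjusted p = 0.000787). In upper-layer cells it was at 26.3 to 38.5 CPM and 26.1 and 31.4 CPM, which overlapped, and the 2 area differences were 1.73 ± 0.23 apart on the log2 scale (SE; edgeR adjusted p = 0.000186). Efnb3, an ephrin ligand of axon guidance, was at 53.7 to 91.2 CPM against 20.5 and 15.2 CPM (-1.96 ± 0.19, SE). Pnck, a calcium/calmodulin-dependent protein kinase, was at 83.9 to 145 CPM against 25.6 and 37.1 CPM (-1.79 ± 0.23, SE), and Zcchc12, a zinc finger protein gene, at 21.01 to 29.4 CPM against 8.02 and 3.57 CPM (-2.07 ± 0.30, SE). The calls of Cxcl12, Efnb3 and Pnck held without any 1 library. Kit (-2.70) and Zcchc12 (-1.63) lost their calls without MC DTA. Nrp2 (-2.12 to -1.78) lost its call without MC CTRL or MC DTA. Rxfp1 (-2.77 to -2.24) lost its call without PFC CTRL replicate 1, PFC CTRL replicate 2, PFC DTA replicate 1, MC CTRL or MC DTA.

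Higher in MC layer 6 cells was Fndc5, which encodes the precursor of the peptide irisin (mm10 chr4:129136999-129144593). Its level was 12.1, 8.9, 12.9, 16.6 and 20.4 CPM in the PFC and 47.2 and 50.9 CPM in the MC. All PFC libraries lay below both MC libraries, with a log2 fold change of 1.81 ± 0.20 (SE; edgeR adjusted p = 0.00025). Brinp3 had a log2 fold change with a larger SE (1.81 ± 0.30, SE), at 5.52 to 31.1 CPM in the PFC and 41.3 and 75.5 CPM in the MC. Igfbp6, a binding protein of insulin-like growth factors, was at 47.8 to 92.8 CPM against 160.4 and 231 CPM (1.46 ± 0.18, SE). Hpca, which encodes the neuronal calcium sensor hippocalcin, was at 53.3 to 141 CPM against 157 and 314 CPM (1.33 ± 0.22, SE).

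Nefm, the medium neurofilament subunit of axons, was at 74.5, 62.7, 71.7, 96.1 and 80.4 CPM in PFC and at 140.2 and 251 CPM in MC layer 6 cells. Its log2 fold change was 1.32 ± 0.15 (SE; edgeR adjusted p = 0.000299). Slc24a2, a sodium/calcium/potassium exchanger, was at 125 to 225 CPM against 465 and 468 CPM (1.29 ± 0.18, SE). Inf2, a formin that remodels actin, was at 39.7 to 64.1 CPM against 127 and 123 CPM (1.35 ± 0.17, SE), and Prss23, a serine protease gene, at 15.6 to 31.3 CPM against 56.8 and 39.8 CPM (1.44 ± 0.21, SE). The calls of Fndc5 and Inf2 held without any 1 library. Prss23 (1.14) lost its call without MC CTRL. Igfbp6 (1.20), Nefm (1.03) and Slc24a2 (1.25) lost their calls without MC DTA. Brinp3 (1.82 to 1.83) and Hpca (1.19 to 1.46) lost their calls without MC CTRL or MC DTA.

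**Figure D3:**
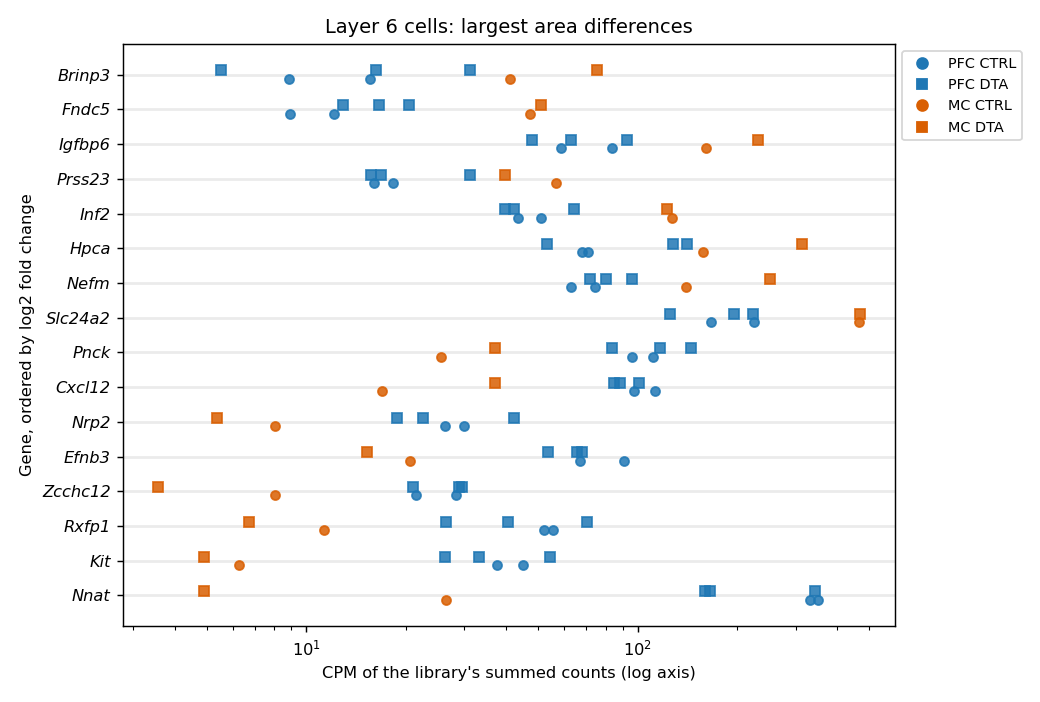
CPM (log axis) in the layer 6 cells of each library for the 16 genes with the largest called area differences at a mean of at least 20 CPM, 8 in each direction; colours mark the areas and symbols the genotypes. For each gene both MC libraries lie outside the range of the PFC libraries, which the rule for naming genes required. Nnat shows a wide gap between the areas and a gap between MC CTRL (26.4 CPM) and MC DTA (4.91 CPM).

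Some genes were called in the same direction in both gates. Those lower in the MC with the largest smaller fold of the 2 gates were Nnat, Egfem1, Nkain3, Capn3 and Efnb3. Egfem1 was at 13.8, 13.3, 14.8, 13.9 and 16.2 CPM in PFC and 1.23 and 0.317 CPM in MC upper-layer cells, a log2 fold change of -4.20 ± 0.39 (SE; edgeR adjusted p = 3.62e-05). Its layer 6 level was 7.47 to 14.7 CPM and 1.78 and 0 CPM (-3.44 ± 0.52, SE), a fold that a library at 0 makes dependent on the fit. Capn3, a calcium-dependent protease gene whose exons overlap those of Ganc, stood at 34.4 to 71.6 CPM in microglia-gated PFC cells, above its 15.6 to 29.4 CPM in PFC upper-layer cells.

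By the same ranking, those higher in both gates were Hr, a transcriptional corepressor gene, Fbxo32, a subunit of a ubiquitin ligase, the channel subunits Kcnab3 and Scn4b described below, and Pvalb. Some genes given above for 1 gate were called higher in the other as well. These included Inf2, Brinp3 and Fndc5 in upper-layer cells (log2 fold changes 1.77, 1.66 and 0.87) and Frzb and A2ml1 in layer 6 cells (1.41 and 0.80). Hr was at 0.934 to 2.96 CPM in PFC and 9.52 and 9.99 CPM in MC upper-layer cells, and at 0.89 to 1.99 and 7.13 and 12.5 CPM in layer 6 cells (log2 fold changes 2.61 ± 0.33 and 2.75 ± 0.40, SE). Pvalb encodes parvalbumin, a calcium buffer best known from fast-spiking inhibitory neurons. It was at 1.25 to 7.24 CPM in PFC and 16.6 and 21.1 CPM in MC upper-layer cells, and at 2.95 to 8.9 and 19.02 and 16.5 CPM in layer 6 cells. Microglia-gated cells, which should lack it, held 5.51 to 32.6 CPM in the PFC and 69.5 to 135 CPM in the MC, above its CPM in MC neurons. These cells held fewer UMIs, and how much of the level of Pvalb in neurons was free RNA was not tested. The calls of Egfem1, Hr, Inf2 and Brinp3 in upper-layer cells held without any 1 library. Nkain3 in upper-layer cells (-2.44) and Capn3 in upper-layer cells (-1.49) lost their calls without MC CTRL. Egfem1 in layer 6 cells (-2.85), Fbxo32 in layer 6 cells (2.16) and Pvalb in upper-layer cells (1.83) lost their calls without MC DTA. Nkain3 in layer 6 cells (-2.93 to -1.68), Hr in layer 6 cells (2.71 to 2.78), Fbxo32 in upper-layer cells (2.67 to 2.92) and Pvalb in layer 6 cells (1.79 to 2.01) lost their calls without MC CTRL or MC DTA. Capn3 in layer 6 cells (-2.15 to -2.04) and Efnb3 in upper-layer cells (-2.06 to -2.03) lost their calls without PFC CTRL replicate 2, MC CTRL or MC DTA. A2ml1 in layer 6 cells (0.58 to 1.01) lost its call without MC CTRL or MC DTA. Frzb in layer 6 cells (1.18 to 1.48) lost its call without PFC CTRL replicate 1, MC CTRL or MC DTA. Fndc5 in upper-layer cells (0.74 to 0.99) lost its call without PFC CTRL replicate 2, PFC DTA replicate 1, MC CTRL or MC DTA.

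Ion channels set the excitability of neurons. Of 53 tested potassium and HCN channel genes 15 were higher and 4 lower in MC upper-layer cells, and 5 of 53 were higher and 1 lower in layer 6 cells (of all tested genes, 3.82% higher and 2.97% lower in upper-layer cells and 1.26% and 1.23% in layer 6 cells). Their median log2 fold change was 0.33 in upper-layer and 0.35 in layer 6 cells, against about 0 over all tested genes (-0.005 and -0.008). Of 26 voltage-gated sodium and calcium channel genes 6 were higher and 1 lower in upper-layer cells, and 3 were higher and 1 lower in layer 6 cells, with medians of 0.23 and 0.21. Mitochondrially encoded genes had medians of a like size, 0.38 and 0.34, with 0 of 13 called in either gate.

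Kcnc2 encodes Kv3.2, a fast delayed rectifier that supports rapid firing. It was at 22.5, 24.5, 23.7, 19.4 and 23.2 CPM in PFC and at 63.8 and 54.7 CPM in MC upper-layer cells. The 5 PFC values lay close together and far below the MC, with a log2 fold change of 1.39 ± 0.14 (SE; edgeR adjusted p = 6.37e-05). Its layer 6 level was 6.53 to 15.6 CPM against 29.4 and 42.4 CPM (1.68 ± 0.26, SE). Microglia-gated cells held 4.498 to 32.6 CPM of it in the PFC and 10.4 to 34.2 CPM in the MC.

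Kcnab3, a beta subunit of Kv1 channels, was at 1.87 to 10.4 CPM in PFC and at 28.02 and 21.6 CPM in MC upper-layer cells (2.39 ± 0.42, SE), and at 5.52 to 12.2 CPM against 20.2 and 37.97 CPM in layer 6 cells (1.79 ± 0.24, SE). Kcnab1, the related beta subunit, went the other way in upper-layer cells, at 43.2 to 53.7 CPM against 16.4 and 20.8 CPM (-1.34 ± 0.16, SE). The calls of Kcnc2 in upper-layer cells and Kcnab1 in upper-layer cells held without any 1 library. Kcnab3 in upper-layer cells (1.80) lost its call without MC CTRL. Kcnc2 in layer 6 cells (1.25) and Kcnab3 in layer 6 cells (1.48) lost their calls without MC DTA.

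Among sodium channel genes Scn4b, a beta subunit, was at 0.834 to 6.43 CPM in PFC and at 12.2 and 12.7 CPM in MC upper-layer cells (2.28 ± 0.43, SE). Scn4b in layer 6 cells was at 10.6, 5.79, 5.52, 7.89 and 9.09 CPM against 30.01 and 38.4 CPM, without overlap (2.04 ± 0.23, SE; edgeR adjusted p = 0.000295). Scn1a, the pore-forming subunit Nav1.1, was called higher in both gates (0.95 ± 0.23 and 0.77 ± 0.17, SE). Lower were Scn3b, a further beta subunit, in layer 6 cells (72.02 to 86.3 CPM against 57.05 and 37.97 CPM) and Cacna1h, a T-type calcium channel, in upper-layer cells (13.3 to 21.9 CPM against 7.58 and 8.88 CPM). Scn4b in upper-layer cells (1.56) lost its call without MC CTRL. Scn4b in layer 6 cells (1.82) lost its call without MC DTA. Scn3b in layer 6 cells (-1.02 to -0.55) and Cacna1h in upper-layer cells (-1.28 to -0.98) lost their calls without MC CTRL or MC DTA. Scn1a in layer 6 cells (0.66 to 0.88) lost its call without PFC CTRL replicate 1, MC CTRL or MC DTA. Scn1a in upper-layer cells (0.74 to 1.16) lost its call without PFC CTRL replicate 1, PFC CTRL replicate 2, PFC DTA replicate 1, MC CTRL or MC DTA. When cells were thinned before gating, the log2 fold change of Scn1a in layer 6 cells was -0.16.

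**Figure D4:**
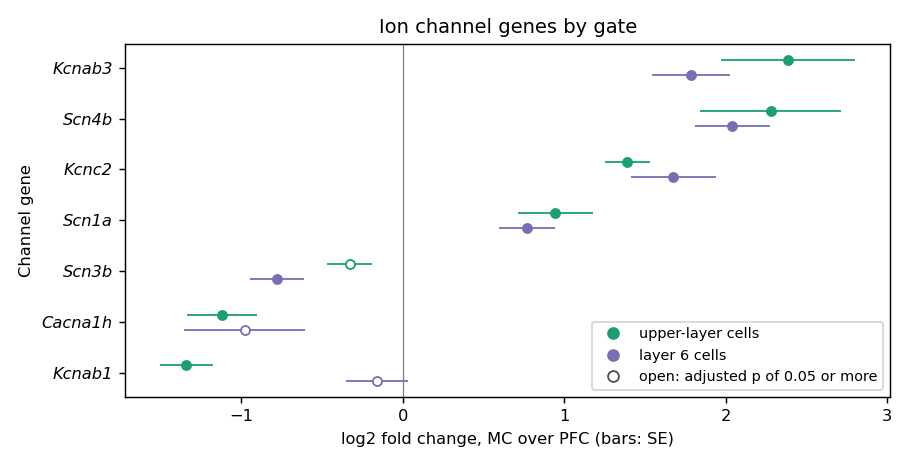
Log2 fold change of MC over PFC with its SE (x axis) for the 7 potassium, sodium and calcium channel genes named in the text, in upper-layer and layer 6 cells; filled points have an adjusted p below 0.05. Kcnab3, Scn4b, Kcnc2 and Scn1a lie to the right of 0 in both gates, and Kcnab1 lies near 0 in layer 6 cells (-0.16).

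GABA-A receptor genes encode chloride channels opened by GABA. Of 12 tested, 3 were higher and 0 lower in MC upper-layer cells, and of 11 in layer 6 cells 2 were higher and 1 lower. Over all tested genes, 3.82% were higher and 2.97% lower in upper-layer cells, and 1.26% and 1.23% in layer 6 cells. Gabrd, a subunit of extrasynaptic receptors, was called in both gates (0.51 ± 0.13 and 0.90 ± 0.23, SE), although the MC range of 75.1 to 103 CPM for Gabrd in upper-layer cells overlapped the PFC range of 54.2 to 78.6 CPM. Gabra5, a further subunit, was lower in layer 6 cells, at 67.7 and 54.5 CPM in the MC and 93.01 to 131 CPM in the PFC (-0.89 ± 0.19, SE). Gabra5 in layer 6 cells (-1.08 to -0.70) lost its call without PFC CTRL replicate 1, MC CTRL or MC DTA. Gabrd in upper-layer cells (0.44 to 0.56) lost its call without PFC CTRL replicate 1, PFC CTRL replicate 2, MC CTRL or MC DTA. Gabrd in layer 6 cells (0.66 to 1.14) lost its call without PFC CTRL replicate 2, PFC DTA replicate 2, MC CTRL or MC DTA.

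Ionotropic glutamate receptor genes were called both ways. Of 16 tested, 2 were higher (Gria2, 0.53 ± 0.15, and Grin1, 0.53 ± 0.14, SE) and 2 lower (Grin3a and Grik2) in MC upper-layer cells. The shares of all tested genes were 3.82% higher and 2.97% lower there, and 1.26% and 1.23% in layer 6 cells. In layer 6 cells 1 of 15 was lower, again Grin3a, at 11.04 to 15.3 CPM in the PFC and 4.16 and 3.57 CPM in the MC (-1.79 ± 0.31, SE). Grin3a in layer 6 cells (-1.84 to -1.74) lost its call without MC CTRL or MC DTA. Grin1 in upper-layer cells (0.48 to 0.58) lost its call without PFC CTRL replicate 1, PFC CTRL replicate 2, MC CTRL or MC DTA. Grik2 in upper-layer cells (-0.75 to -0.63) lost its call without PFC CTRL replicate 2, PFC DTA replicate 2, MC CTRL or MC DTA. Gria2 in upper-layer cells (0.44 to 0.61) lost its call without PFC CTRL replicate 1, PFC CTRL replicate 2, PFC DTA replicate 1, MC CTRL or MC DTA.

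Of the receptors for neuromodulators, 4 were higher and 2 lower of 36 tested in MC upper-layer cells and 3 higher and 2 lower of 37 in layer 6 cells, beside shares over all tested genes of 3.82% higher and 2.97% lower in upper-layer cells and 1.26% and 1.23% in layer 6 cells. The serotonin receptor gene Htr2a was at 23.7 to 30.9 CPM in PFC and 35.4 and 74.2 CPM in MC upper-layer cells, and at 5.52 to 12.5 and 16.3 and 33.95 CPM in layer 6 cells, with MC DTA above MC CTRL each time (0.92 ± 0.21 and 1.46 ± 0.24, SE). Htr2c, another serotonin receptor gene, was lower in layer 6 cells, at 17.4, 26.3, 14.7, 39.9 and 22.7 CPM in the PFC and 4.46 and 5.81 CPM in the MC (-2.27 ± 0.34, SE; edgeR adjusted p = 0.00213). Of the adrenergic receptors of layer 6 cells, Adra1b was higher (80.5 and 76.4 CPM against 26.97 to 44.1 CPM) and Adra1a lower (2.97 and 2.68 CPM against 7.67 to 12.9 CPM). Htr2a in layer 6 cells (1.22) and Adra1b in layer 6 cells (1.06) lost their calls without MC DTA. Htr2c in layer 6 cells (-2.29 to -2.24) lost its call without MC CTRL or MC DTA. Htr2a in upper-layer cells (0.25 to 0.89) lost its call without PFC DTA replicate 1 or MC DTA. Adra1a in layer 6 cells (-1.79 to -1.57) lost its call without PFC CTRL replicate 2, MC CTRL or MC DTA.

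Of the neuropeptide genes, 2 of 19 were higher and 2 lower (Grp and Cort) in MC upper-layer cells, and 1 of 17 was higher in layer 6 cells. Among all tested genes 3.82% were higher and 2.97% lower in upper-layer cells, and 1.26% were higher in layer 6 cells. Cartpt, the precursor of the CART peptide, was at 5.42, 7.005, 1.48, 1.65 and 2.39 CPM in PFC and 16.04 and 31.9 CPM in MC upper-layer cells (2.79 ± 0.49, SE). Penk, the precursor of enkephalins, was at 1.84 to 3.56 CPM against 8.02 and 10.7 CPM in layer 6 cells (1.51 ± 0.35, SE), with 0 to 52.3 CPM in microglia-gated PFC cells. Npy, called in upper-layer cells (0.64 ± 0.17, SE), overlapped between the areas, stood at 21.4 to 597 CPM in microglia-gated PFC cells and had a log2 fold change of -0.26 within the deeper libraries. Cartpt in upper-layer cells (1.35 to 2.64) lost its call without PFC DTA replicate 3 or MC DTA. Penk in layer 6 cells (1.25 to 1.75) lost its call without PFC CTRL replicate 1, MC CTRL or MC DTA. Npy in upper-layer cells (0.40 to 0.83) lost its call without PFC CTRL replicate 1, PFC CTRL replicate 2, MC CTRL or MC DTA.

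Transcription factors that pattern cortical areas in development form the next list. Of 18 tested, 3 were higher and 2 lower in MC upper-layer cells. All tested genes had shares of 3.82% higher and 2.97% lower there, and 1.26% and 1.23% in layer 6 cells. Emx2, a homeobox gene, was at 8.76, 4.67, 11.9, 2.47 and 3.12 CPM in the PFC and 19.9 and 25.5 CPM in the MC (2.33 ± 0.40, SE). Rorb, a nuclear receptor best known from layer 4, was at 17.5 to 45.3 CPM against 69.4 and 81.4 CPM (1.52 ± 0.26, SE), and Meis2, a homeobox gene, at 316 to 368 CPM against 177 and 221 CPM (-0.79 ± 0.15, SE). Emx1, a homeobox gene of cortical excitatory neurons, was called higher in both gates (0.65 ± 0.14 and 0.81 ± 0.16, SE) and was the 1 called gene of 16 in layer 6 cells. Meis2 in upper-layer cells (-0.59) lost its call without MC CTRL. Emx2 in upper-layer cells (1.64) lost its call without MC DTA. Rorb in upper-layer cells (1.34 to 1.75), Emx1 in upper-layer cells (0.64 to 0.65) and Emx1 in layer 6 cells (0.61 to 0.99) lost their calls without MC CTRL or MC DTA.

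In the retinoic acid pathway, a signal in cortical development, 2 of 12 genes were higher and 1 lower in MC upper-layer cells, beside 3.82% and 2.97% of all tested genes. Aldh1a3, an enzyme that makes retinoic acid, was at 25.9, 15.4, 19.3, 18.1 and 21.3 CPM in PFC and 4.76 and 3.01 CPM in MC upper-layer cells (-2.37 ± 0.29, SE; edgeR adjusted p = 0.000269). Its relative Aldh1a1 went the other way at a low level, at 1.65 to 3.12 CPM against 7.75 and 8.25 CPM, beside 8.92 to 10.4 CPM in microglia-gated MC cells. In layer 6 cells, where 1.26% of all genes were higher and 1.23% lower, 1 of 10 genes was higher (Dhrs3, 1.42 ± 0.29, SE) and 1 lower (the receptor Rxrg, -2.81 ± 0.59, SE, at 3.69 to 8.9 CPM in the PFC and 1.78 and 0 CPM in the MC), and Dhrs3 stood at 61.8 to 91.3 CPM in microglia-gated PFC cells, above its 20.8 and 24.6 CPM in MC layer 6 cells. The call of Aldh1a3 in upper-layer cells held without any 1 library. Aldh1a1 in upper-layer cells (1.78 to 2.01), Dhrs3 in layer 6 cells (1.09 to 1.74) and Rxrg in layer 6 cells (-6.98 to -2.22) lost their calls without MC CTRL or MC DTA.

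Cadherins and protocadherins join cells by their surfaces. Of 23 tested, 3 were higher and 6 lower in MC upper-layer cells, and 1 was higher and 1 lower of 23 in layer 6 cells (all tested genes, 3.82% higher and 2.97% lower in upper-layer cells and 1.26% and 1.23% in layer 6 cells). Pcdh15 was at 69.7 to 107 CPM in PFC and 32.1 and 25.2 CPM in MC upper-layer cells (-1.63 ± 0.15, SE). Pcdh17 was lower in layer 6 cells as well, at 305 to 388 CPM against 177 and 135 CPM (-1.13 ± 0.16, SE), and Pcdh7 higher there, at 103 to 158 CPM against 265 and 260.4 CPM (1.09 ± 0.16, SE). The call of Pcdh15 in upper-layer cells held without any 1 library. Pcdh17 in layer 6 cells (-0.88) lost its call without MC DTA. Pcdh7 in layer 6 cells (0.99 to 1.22) lost its call without MC CTRL or MC DTA.

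Ephrins and Eph receptors guide axons by repulsion and adhesion. In upper-layer cells 0 of 18 were higher and 3 lower in the MC, the B-type ephrins Efnb1, Efnb3 and Efnb2, the last of which the rule for naming genes did not choose. Shares over all tested genes were 3.82% higher and 2.97% lower in upper-layer cells, and 1.26% and 1.23% in layer 6 cells. Efnb1 was at 18.7 to 33.8 CPM against 10.4 and 12.7 CPM (-1.21 ± 0.22, SE). Among layer 6 cells 2 of 15 were higher, the receptors Epha4 (102 to 173 CPM against 223 and 277 CPM) and Epha7 (57.03 to 93.01 CPM against 126 and 127 CPM), and Efnb3 was lower. Efnb1 in upper-layer cells (-0.85) lost its call without MC CTRL. Epha4 in layer 6 cells (0.85 to 1.05) lost its call without MC CTRL or MC DTA. Epha7 in layer 6 cells (0.67 to 0.80) lost its call without PFC CTRL replicate 1, MC CTRL or MC DTA.

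Of 40 tested genes of the semaphorin, netrin and slit guidance systems 7 were higher and 3 lower in MC upper-layer cells, and of 41 in layer 6 cells 2 were higher and 1 lower. Over all tested genes the shares were 3.82% higher and 2.97% lower in upper-layer cells and 1.26% and 1.23% in layer 6 cells. Unc5d, a netrin receptor, was at 25.2 to 42.9 CPM in PFC and 115 and 83.6 CPM in MC upper-layer cells (1.54 ± 0.20, SE), and Robo2, a slit receptor, at 57.8 to 70.5 CPM against 125 and 125 CPM (0.91 ± 0.12, SE). Sema7a, a membrane-anchored semaphorin, was called higher in both gates (1.14 ± 0.17 and 1.28 ± 0.19, SE), and Robo3, of the same family as Robo2, in layer 6 cells, at 0 to 4.57 CPM against 24.4 and 16.5 CPM (2.65 ± 0.34, SE). The folds of Rxrg and Robo3, each with a library at 0, depend on the fit. The calls of Unc5d in upper-layer cells and Robo2 in upper-layer cells held without any 1 library. Sema7a in upper-layer cells (1.08) and Robo3 in layer 6 cells (2.15) lost their calls without MC CTRL. Sema7a in layer 6 cells (1.14) lost its call without MC DTA.

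Activity-regulated genes are induced within minutes to hours of neuronal firing, many of them through the factor CREB, and can also be induced when tissue is dissociated. Of 26 genes 0 were higher and 3 lower in MC upper-layer cells (Npas4, Jun and Fos), and in layer 6 cells 0 were higher and 1 lower (Nr4a3). These counts stand beside 3.82% higher and 2.97% lower of all tested genes in upper-layer cells, and 1.26% and 1.23% in layer 6 cells. The median log2 fold change of the list was -1.23 in upper-layer and -1.03 in layer 6 cells, with 23 and 22 members below 0. The 250 bases before the RefSeq start sites of the called genes (GRCm38.p6, 5′ to 3′ on the strand of the gene) are shown to give the letters searched for a half-site of CREB. Capitals mark TGACG and its reverse complement CGTCA, the half-site of the element that CREB binds.
Npas4: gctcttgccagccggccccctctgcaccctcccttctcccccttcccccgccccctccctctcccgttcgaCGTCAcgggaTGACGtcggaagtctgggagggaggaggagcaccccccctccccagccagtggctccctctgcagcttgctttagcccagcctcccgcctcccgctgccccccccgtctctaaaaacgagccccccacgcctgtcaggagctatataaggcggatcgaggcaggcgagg
Fos: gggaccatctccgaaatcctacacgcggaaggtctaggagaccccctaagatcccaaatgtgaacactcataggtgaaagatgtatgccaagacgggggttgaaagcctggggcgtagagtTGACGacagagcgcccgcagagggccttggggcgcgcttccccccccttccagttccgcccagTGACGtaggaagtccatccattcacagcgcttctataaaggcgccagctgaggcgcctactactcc
Nr4a3: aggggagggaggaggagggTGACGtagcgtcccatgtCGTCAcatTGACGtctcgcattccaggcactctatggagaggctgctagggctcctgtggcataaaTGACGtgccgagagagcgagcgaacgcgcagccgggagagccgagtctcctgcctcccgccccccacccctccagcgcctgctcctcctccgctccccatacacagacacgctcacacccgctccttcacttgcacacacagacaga
Jun: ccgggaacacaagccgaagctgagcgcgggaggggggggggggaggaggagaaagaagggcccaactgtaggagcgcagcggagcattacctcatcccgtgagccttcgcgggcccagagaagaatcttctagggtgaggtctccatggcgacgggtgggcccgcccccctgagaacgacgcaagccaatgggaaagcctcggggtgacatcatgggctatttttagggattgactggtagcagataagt
The stretches lie at chr19:4989972-4990221 on the minus strand (Npas4), chr12:85473640-85473889 on the plus strand (Fos), chr4:48045055-48045304 on the plus strand (Nr4a3) and chr4:95052223-95052472 on the minus strand (Jun). They hold 2 matches for Npas4, 2 for Fos, 4 for Nr4a3 and 0 for Jun. The GENCODE vM21 annotation starts Npas4 at chr19:4990316 and Nr4a3 at chr4:48045153. By it the Npas4 stretch lies inside the gene, and so does part of the Nr4a3 stretch. Of 32851 stretches of that length in the RefSeq table, 17.8% held a match on either strand. By symbol 20 of the 26 genes matched the table, with 32 start sites, of which 18 held a match. A match of letters is not a bound site.

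Npas4, a transcription factor induced by calcium entry, was at 224, 140.3, 216, 189 and 297 CPM in PFC and at 37.01 and 60.3 CPM in MC upper-layer cells. The ranges were apart, a condition for naming the genes of largest fold, and the log2 fold change was -2.12 ± 0.26 (SE; edgeR adjusted p = 0.00104). Microglia-gated cells held 0 to 27.6 CPM of it in the PFC and 0 CPM in the MC. Fos, a subunit of the AP-1 factor, was at 332, 225, 299, 227 and 481 CPM against 63.8 and 101 CPM (-1.92 ± 0.33, SE; edgeR adjusted p = 0.0134). Jun, its partner in AP-1, was at 117, 108, 138, 126 and 217 CPM against 53.8 and 73.9 CPM (-1.10 ± 0.20, SE). In microglia-gated cells the MC values lay within the PFC range, with Fos at 409.9 to 591 CPM in the PFC and 428 to 559 CPM in the MC and Jun at 477 to 1126 and 759.6 to 760.5 CPM, all above the levels in the MC neurons.

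In layer 6 cells the MC libraries were unlike each other, with Npas4 at 36.2 and 135 CPM beside 105 to 254 CPM in the PFC and Fos at 59.4 and 183 CPM beside 165 to 496 CPM. Nr4a3, a nuclear receptor gene, was at 47.4, 35.2, 38.6, 40.1 and 32.9 CPM in the PFC and at 19.6 and 16.98 CPM in the MC, below every PFC library (-1.10 ± 0.20, SE; edgeR adjusted p = 0.006503). Egr1, singled out after its values were seen, had -0.21 ± 0.52 and -0.01 ± 0.31 (SE) in the 2 gates and was not called. Heat shock and dissociation genes had 1 lower of 15 in upper-layer cells (Dnajb1, -0.99 ± 0.25, SE), beside 2.97% of all tested genes. In layer 6 cells 0 of 14 were called, and the medians of the list were -0.29 and -0.11 in the 2 gates. The part of dissociation in these values was not tested. The call of Npas4 in upper-layer cells held without any 1 library. Jun in upper-layer cells (-1.14 to -1.06) and Nr4a3 in layer 6 cells (-1.10 to -1.08) lost their calls without MC CTRL or MC DTA. Fos in upper-layer cells (-2.12 to -1.75) lost its call without PFC DTA replicate 1, MC CTRL or MC DTA. Dnajb1 in upper-layer cells (-1.10 to -0.83) lost its call without PFC CTRL replicate 1, PFC DTA replicate 2, MC CTRL or MC DTA.

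Whether an area difference depended on the layer was tested with the difference between the gates within each library. Of 12410 genes 86 had a more positive and 93 a more negative area difference in upper-layer than in layer 6 cells (1.44% called in all). Grp was at 84.8, 67.6, 60.7, 66.4 and 116 CPM in PFC and at 39.8 and 42.4 CPM in MC layer 6 cells, a log2 difference of -0.97 ± 0.24 (SE) that missed the threshold (edgeR adjusted p = 0.0626). Set beside its upper-layer values, Grp in both MC libraries was higher in layer 6 than in upper-layer cells. In 4 of the 5 PFC libraries it was higher in upper-layer cells, and in PFC DTA replicate 1 the 2 levels were nearly equal (60.8 CPM in upper-layer and 60.7 CPM in layer 6 cells). The 2 area differences were -3.02 ± 0.22 apart (SE; edgeR adjusted p = 4.62e-09).

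Cd24a in layer 6 cells was at 32.6 to 61.4 CPM in the PFC and 24.96 and 30.4 CPM in the MC, and its area differences were -3.07 ± 0.29 apart (SE; edgeR adjusted p = 8.48e-08). Col6a1, a collagen VI chain gene, was at 7.41 to 31.99 CPM in PFC and 7.402 and 5.39 CPM in MC upper-layer cells, where the areas nearly touched, and overlapped in layer 6 cells at 36.3 to 68.1 and 63.6 and 38.4 CPM, -2.11 ± 0.32 apart. Tox, which encodes a DNA-binding protein, was at 13.3 to 38.3 CPM in PFC and 7.23 and 6.19 CPM in MC upper-layer cells and overlapped in layer 6 cells at 53.3 to 105 and 60.02 and 90.7 CPM, -1.95 ± 0.23 apart.

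In the other direction stood Slc17a6, a vesicular glutamate transporter known from thalamic neurons (mm10 chr7:51622006-51671119). It was at 2.92, 7.47, 5.93, 7.31 and 6.8 CPM in PFC and 26.1 and 17.1 CPM in MC upper-layer cells (1.72 ± 0.26, SE). The order was turned in layer 6 cells, at 23.9, 20.5, 27.6, 25.9 and 24.4 CPM in the PFC and 13.1 and 14.3 CPM in the MC (-0.79 ± 0.21, SE; edgeR adjusted p = 0.0504), and the 2 differences were 2.50 ± 0.30 apart (SE; edgeR adjusted p = 6.33e-06).

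Barx2, a homeobox gene, was at 9.19 to 23.7 CPM in PFC and 44.6 and 23.9 CPM in MC upper-layer cells and overlapped in layer 6 cells, 2.12 ± 0.36 apart (SE). Myh7, a myosin heavy chain gene, overlapped in upper-layer cells and was lower in MC layer 6 cells, at 1.78 and 3.13 CPM against 6.18 to 14.7 CPM, 2.16 ± 0.45 apart. Sla, a signalling adaptor gene, stood at 0 to 1.87 CPM in PFC and 1.94 and 3.96 CPM in MC upper-layer cells and overlapped in layer 6 cells at 28.1 to 50.7 and 45.2 and 17.4 CPM, 2.10 ± 0.52 apart, with 79.2 to 159.7 CPM in microglia-gated PFC cells. Of the area differences within a gate, the following depended on single libraries. Slc17a6 in upper-layer cells (1.30) and Barx2 in upper-layer cells (0.97) lost their calls without MC CTRL. Tox in upper-layer cells (-1.65) lost its call without MC DTA. Col6a1 in upper-layer cells (-1.90 to -1.89) lost its call without MC CTRL or MC DTA. Myh7 in layer 6 cells (-2.44 to -1.33) lost its call without PFC CTRL replicate 2, PFC DTA replicate 2, MC CTRL or MC DTA. Of these differences between gates, the calls of Grp, Cd24a, Tox, Slc17a6 and Cxcl12 held without any 1 library. Barx2 (1.19) and Myh7 (1.45) lost their calls without MC CTRL. Col6a1 (-2.17 to -2.02) lost its call without MC CTRL or MC DTA. Sla (0.64 to 2.15) lost its call without PFC CTRL replicate 1, PFC DTA replicate 1, PFC DTA replicate 2, PFC DTA replicate 3 or MC DTA.

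**Figure D5:**
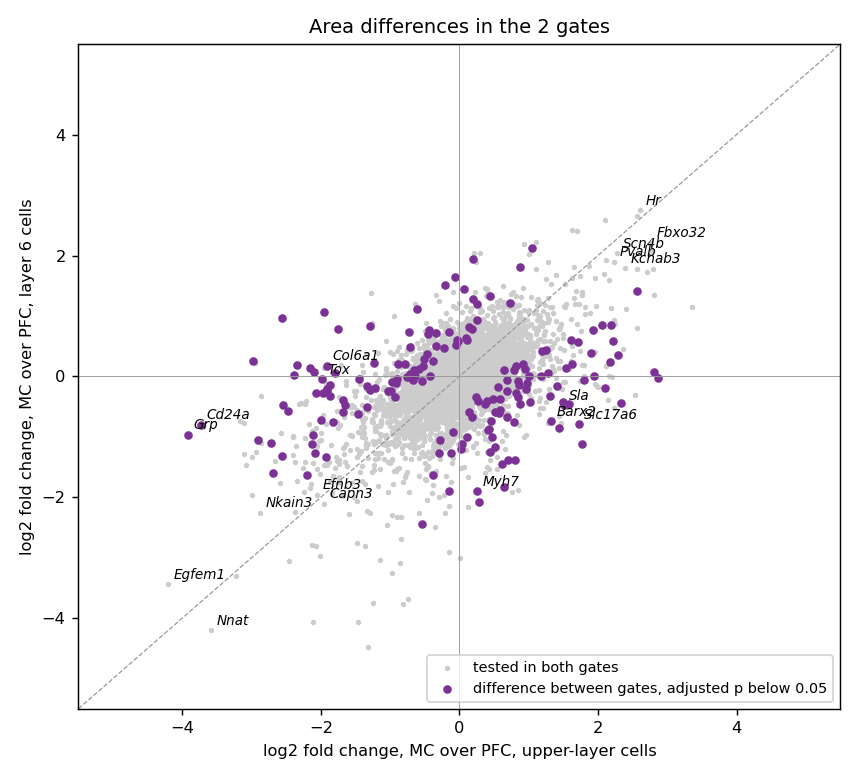
Log2 fold change of MC over PFC in upper-layer cells (x axis) and layer 6 cells (y axis) for 11533 genes tested in both gates, 2 of them outside the axes; marked points are 174 genes whose area difference differed between the gates. Both axes use the same 7 libraries; Grp and Cd24a lie far to the left with layer 6 values of -0.97 and -0.80.

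Layer markers that the gates did not use differed between areas too. Of 9 other upper-layer genes 5 were higher in MC upper-layer cells, beside 3.82% of all tested genes. Cux1, a homeobox gene of upper layers, was at 49.2, 34.8, 72.6, 44.1 and 52.4 CPM in the PFC and 152 and 138 CPM in the MC (1.62 ± 0.19, SE), beside 54.8 to 77.1 and 62.5 to 72.8 CPM in microglia-gated cells. The other four were Rasgrf2 (0.79 ± 0.12, SE), Pou3f2 (1.26 ± 0.19, SE), Pou3f3 (0.73 ± 0.16, SE) and Plxnd1 (1.08 ± 0.17, SE). Sox5, a transcription factor of deep-layer neurons, was also higher in MC upper-layer cells, at 44.8 and 52.97 CPM against 10.1 to 18.03 CPM (1.72 ± 0.19, SE). Crym, a thyroid hormone-binding protein gene, was lower in MC layer 6 cells, at 213 and 171 CPM against 349 to 519 CPM (-1.16 ± 0.19, SE). The calls of Cux1 and Sox5 held without any 1 library. Rasgrf2 (0.70) and Pou3f2 (0.93) lost their calls without MC CTRL. Plxnd1 (0.89) and Crym (-0.96) lost their calls without MC DTA. Pou3f3 (0.57 to 0.89) lost its call without PFC CTRL replicate 2, MC CTRL or MC DTA.

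Without matching by layer, over all excitatory cells, 775 of 14166 genes were called (5.47%). Kcnn2, which encodes a small-conductance calcium-activated potassium channel, was at 25.6 to 33.1 CPM in MC and 39.2 to 51.4 CPM in PFC excitatory cells, a log2 fold change of -0.69 ± 0.13 (SE; edgeR adjusted p = 0.0117). Its values were -0.26 ± 0.18 in upper-layer and -0.41 ± 0.19 (SE) in layer 6 cells, neither called. In the same order, Kctd1 had 0.43, 0.17 and 0.15, Epop 0.48, 0.18 and 0.38, and Fras1 -0.76, -0.46 and -0.59. These 4 genes were picked after their values were seen, as those called over all excitatory cells with an unadjusted p above 0.05 in both gates. Whether their values in the gates differ from those over all cells was not tested.

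Fold changes of 126 named results were also computed within subsets of the libraries, with no test. The subsets were the deeper libraries by all their excitatory cells (PFC CTRL replicate 1, PFC DTA replicate 2 and MC DTA), the remaining shallower ones, CTRL and DTA. Within the gates this split did not separate depth cleanly. PFC DTA replicate 3, among the shallower, had a median of 11705.5 UMIs per layer 6 cell, above the 10299 and 11106 of the deeper PFC libraries. Its upper-layer median was 11212.5. Of 504 values 503 kept the sign of the main value, Npy in upper-layer cells being the exception. All 126 results had been called over the same 7 libraries, so a kept sign was largely set in advance and is no separate support. In size, 226 of these values moved from the main value by at least its SE and 277 by less. For Grp in upper-layer cells the log2 values were -3.99, -3.55, -3.88 and -3.66, in that order. For Nnat in layer 6 cells they were -5.42, -3.29, -3.64 and -5.23, and for Npas4 in upper-layer cells -1.77, -2.49, -2.24 and -1.93. Reads of Brinp3, Cacna1h, Cux1, Emx2, Fbxo32, Gabra5, Grin1, Hpca, Jun, Kcnab1, Kcnab3, Myh7, Nefm, Nnat, Pcdh7, Penk, Ppp1r1b, Prss23, Sox5 and Tox could in part stem from an annotated gene on the opposite strand whose exons overlap theirs (GENCODE vM21) if the counting ignored strand. How strand was treated was not given in the sources used here.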

How the data were processed

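Single-cell RNA was measured in 7 libraries, 5 of the PFC and 2 of the MC. The authors deposited UMI counts per gene and cell, made with Cell Ranger 3.0.2 and Seurat on mm10, per the submitters' processing notes; their roles and any cell filter are not given in the sources used here, and the cells have 501 or more detected genes. All deposited counts were checked to be whole numbers, totals per library were 6180059 to 30972905, and a gene missing from 1 library's table was counted as 0. UMIs remove PCR copies, and the SEs and p-values of the edgeR fits cover the spread between libraries as well as sampling. Doublets were called per library with Scrublet (scanpy 1.11.5, Python 3.11.15). It marked 0 cells in PFC DTA replicate 3, where the 295 highest scores were removed instead.

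Counts were summed per library and gate, because cells are not replicates. CPM was computed from these deposited counts with each sum scaled to 1000000. Genes were filtered with filterByExpr (minimum count 10), normalized by TMM and entered edgeR 4.0.16 (R 4.3.3; robust quasi-likelihood, genotype and area terms, 4 residual degrees of freedom, Benjamini-Hochberg adjusted p below 0.05). The difference between gates was tested on the 14 sums with the library as a block and a genotype by layer term. The SE was taken as the size of the log2 fold change over the root of edgeR's F. Shares were compared by an exact two-sided permutation test (scipy 1.17.1). The labels give no statement that libraries came from separate mice beyond a brain per sample, so p-values measure the spread between libraries.

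Cells, gates and gene lists were chosen with earlier results of these data known. In each gate the 8 genes with the largest called fold each way were named, at a mean of at least 20 CPM with the areas apart. Next came the 5 each way called in both gates with the largest smaller fold, and the 4 each way with the largest difference between gates. Each of 14 lists gave up to 4 called members by p, or the 1 of smallest p where none was called. Of the 21 marker lists, those of other upper-layer, other corticothalamic and oligodendrocyte genes gave every called member. Predicted genes, pseudogenes, haemoglobin and sex-linked genes of the Y or X inactivation were not named. Alternatives were DESeq2 1.42.0, RLE size factors, no count filter, a test that is not robust, no genotype term, a depth term, doublets kept, thinning to 2000 UMIs without shallower cells, stricter gates, equal cell numbers and each library left out. Scripts were tested on simulated data. Some genes that the rule names are not reported here, though counted in the lists. Promoters came from RefSeq GRCm38.p6 and gene positions from GENCODE vM21.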

Additional observations from a re-analysis of the deposited data

Results flagged for a closer look

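In 6 of 128 sets of 5 PFC values, 1 library stood apart from the rest by Dixon's test at the 95% level, which chance gives in about 1 in 20 groups. The sets were 126 called results of named genes and the shares of excitatory cells in the gates, and all 6 were of genes. PFC DTA replicate 1, the library with the fewest cells in both gates, was low for Grp in upper-layer cells (60.8 CPM, others 124 to 142) and for Penk in layer 6 cells (1.84 CPM, others 3.24 to 3.56). It was high for Pou3f2 in upper-layer cells (59.3 CPM, others 32.6 to 38.2) and for Prss23 in layer 6 cells (31.3 CPM, others 15.6 to 18.3). PFC DTA replicate 3 was low for Emx1 (37.5 CPM, others 50.9 to 54.9) and high for Jun (217 CPM, others 108 to 138) in upper-layer cells.

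By edgeR's test of the difference between the gates, 31 of 97 named genes had unequal area differences, beside 1.44% of all 12410 tested genes. The named genes were chosen from these same data, 8 of them for this difference, so their count cannot stand for genes at large. Of the 31, those given in the results are the 8 named for the size of this difference, and Cxcl12. In upper-layer relative to layer 6 cells it was lower for Grp (-3.02 ± 0.22, log2 ± SE), Cd24a (-3.07 ± 0.29), Col6a1 (-2.11 ± 0.32) and Tox (-1.95 ± 0.23), and higher for Slc17a6 (2.50 ± 0.30), Myh7 (2.16 ± 0.45), Barx2 (2.12 ± 0.36), Sla (2.10 ± 0.52) and Cxcl12 (1.73 ± 0.23). Adjusted p from edgeR ran from 4.62e-09 to 0.0484.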

How the results depend on the processing

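No paired analysis was possible because the motor cortex libraries carry no replicate number in the labels, so no number is shared between the areas. With 1 library left out in turn, 110 to 975 genes were called in upper-layer cells (854 with all), 17 to 490 in layer 6 cells (292), 97 to 877 over all excitatory cells (775) and 51 to 208 between the gates (179). The lowest counts came without an MC library, which leaves the MC as 1 library assumed to vary like the PFC. Without MC CTRL there were 106 calls over all excitatory cells and 51 between the gates, and without MC DTA 97 and 69. Leaving out cells with fewer than 2000 UMIs (425 to 4868 per library) and thinning the rest to 2000 before gating gave 60, 14, 117 and 13 calls in the same order, with only 4095, 4008, 10453 and 4857 genes tested. Gating on thinned counts and summing all counts, added after the data were seen, gave 262, 96 and 61 (upper-layer, layer 6, between gates). Equal numbers of cells gave 366 in upper-layer cells and 69 between the gates. Without a count filter there were 641 layer 6 calls and 309 between the gates, and DESeq2 called 79 between the gates. The cause of these shifts was not tested beyond the smaller number of genes and cells. The remaining alternatives stayed within 1.5 times the main count.

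Of 157 calls of named genes, 24 were kept in every setting that could be fitted and 46 in every setting with both MC libraries. Over their tested alternatives 2222 kept direction and call, 560 lost the call and 2 reversed: Npas4 between the gates, to 0.91, and Scn1a in layer 6 cells, to -0.16, both after thinning. Within the deeper libraries Npy in upper-layer cells was at -0.26. Leaving out 1 library gave layer 6 share differences of -4.61 to 2.19 percentage points. That of -1.68 percentage points turned to 2.19 without PFC CTRL replicate 1, 1.25 without MC DTA, 0.854 after thinning, 0.333 with 3 gate genes and 0.748 in a gate of Foxp2 and Rprm together. A gate of Cux2 and Otof together, added like the last for shares after the data were seen, gave an upper-layer share difference of 0.0855 percentage points, but was not run for the gene tests, since PFC DTA replicate 1 held 4 such cells.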
